A study of Arabidopsis thaliana x Arabidopsis arenosa with 4 samples.

Results

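The cutin synthesis genes are 10 genes of Arabidopsis thaliana chosen by their locus codes for known roles in making cutin, with no threshold on a measured value. They and the other gene lists used below were, however, chosen with earlier results of these data known. All 10 cutin synthesis genes were listed in each of the 3 hybrid libraries, out of 14687 genes listed in all 3. RNA came from whole siliques, the fruits of these plants, 4 days after pollination. Each of 3 F1 hybrids joined a tetraploid A. thaliana, of the ecotype C24, Ler or Col, with tetraploid Arabidopsis arenosa, and the fourth sample was Allo733, an allotetraploid line in generation F8 whose label gives Ler as its A. thaliana ecotype. The F1 samples are called the C24, Ler and Col hybrids, or crosses. Each of the 4 groups was 1 library, so no difference between 2 of them has a replicate check. A. arenosa is named last in each cross, but the labels do not say which species gave the pollen.

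Cutin is the polyester that, with waxes, forms the cuticle over the outer surface of the epidermis. Its monomers are built in epidermal cells from fatty acids that are activated to coenzyme A esters, oxidised by cytochrome P450 enzymes, joined to glycerol by acyltransferases and then exported to the wall. Mutants of several of these genes have leaky cuticles or fused organs, and in fruits and seeds the cuticle keeps neighbouring organs and the embryo and endosperm surfaces apart.

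The genes fall into 4 steps. LACS2 (AT1G49430), a long-chain acyl-CoA synthetase, activates the fatty acids. CYP86A8 (AT2G45970, also called LACERATA) and CYP86A4 (AT1G01600) are P450 enzymes that hydroxylate the chain end, CYP77A6 (AT3G10570) hydroxylates within the chain, and HTH (AT1G72970, HOTHEAD) is an oxidoreductase-like protein needed for normal levels of dicarboxylic acid monomers. GPAT4 (AT1G01610), GPAT6 (AT2G38110) and GPAT8 (AT4G00400) transfer acyl groups to glycerol 3-phosphate, and DCR (AT5G23940) is an acyltransferase of another family that is needed for dihydroxylated monomers to enter cutin. BDG (AT1G64670, BODYGUARD) is a protein of the alpha/beta-hydrolase fold in the outer epidermal wall that is needed for a normal cuticle.

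Several members have close copies, whose reads the authors' mapping could have shared. In the RefSeq annotation, a later build than that of the deposited values and used here for names, neighbours and sequence comparison, GPAT4 and GPAT8 transcripts were 83.0% identical over 1503 aligned bases. CYP86A4 was 83.0% identical to CYP86A2, a gene of the same family outside the 10, over 1641 bases, and CYP77A6 was 81.0% identical to CYP77A4 over 1518 bases. CYP86A4 and GPAT4 are direct neighbours on chromosome 1, and their copies CYP86A2 and GPAT8 lie on chromosome 4 with 3 protein-coding genes between them. BDG was 75.8% identical to AT5G41900 over 1433 bases. No transcript similar to that of DCR was found by a BLAST search of nucleotide sequences, and proteins were not compared. The end of the BDG transcript overlaps that of its neighbour AT1G64660 on the opposite strand by 38 bases.

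The first question was how strongly the cutin genes were expressed. Values are RPKM, reads normalised to transcript length and library size, so levels can be set side by side between genes. Most of the 10 genes were well above the typical gene. Their median total was 56.2 RPKM in the C24 hybrid, 53.6 in the Ler hybrid and 71.1 in the Col hybrid, against 11.7, 12.5 and 12.3 RPKM for all listed genes. DCR was the highest member in every cross and lay above 96.5%, 96.5% and 97.4% of listed genes. The lowest member differed between crosses. It was GPAT8 in the C24 hybrid at 11.8 RPKM, CYP86A4 in the Ler hybrid at 24.2 RPKM and BDG in the Col hybrid at 31.8 RPKM.

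The next question was whether total expression of the pathway differed between the A. thaliana ecotypes used. The summed total of the 10 genes was 679.4 RPKM in the C24 hybrid, 631.8 in the Ler hybrid and 903.9 in the Col hybrid. Of the 10 genes, 9 had their highest total in the Col hybrid, against 32.6% of all genes after centring each cross on its median gene, and the exception was BDG. As deposited, without centring, the count was also 9, against 32.4% of all genes. Leaving out the C24 library, all 10 genes were higher in the Col than in the Ler hybrid (52.2% of all genes), and leaving out the Ler library, 9 were higher in the Col than in the C24 hybrid (52.6% of all genes). As 9 genes were highest in the Col hybrid, each of these counts had to be at least 9, so they are no separate check. The lowest total fell in the Ler hybrid for 7 of the 10 after centring, against 33.9% of all genes. As deposited it fell there for 6, and the share of all genes was not counted without centring. Centring removed a shift of 0.16 log2 units of the median gene in the Ler hybrid and of 0.10 in the Col hybrid against the C24 hybrid.

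**Figure D1:**
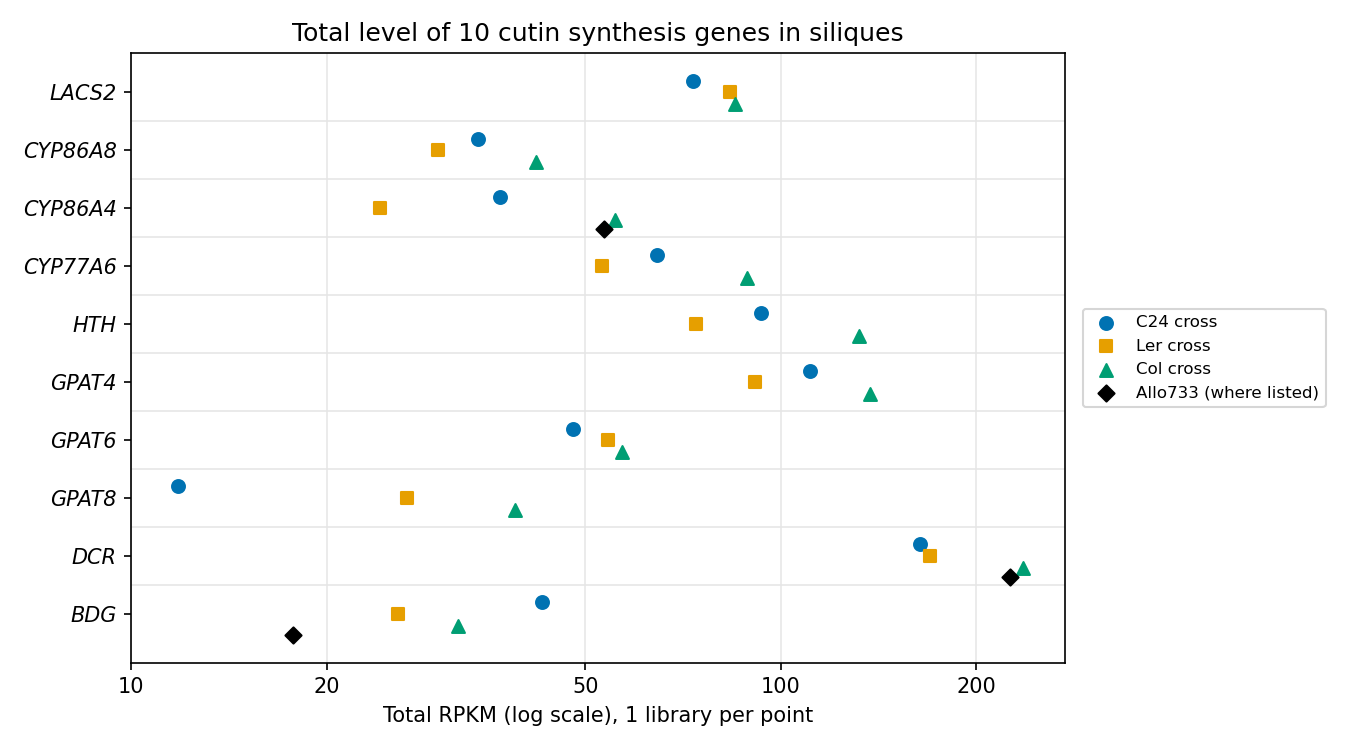
Total RPKM (log axis) of each cutin gene in the 3 hybrids and, where listed, in Allo733, with 1 library per point and no error bars. Except for BDG, every gene has its highest cross value in the Col hybrid, from 38.9 RPKM for GPAT8 to 235.9 RPKM for DCR.

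The activating enzyme varied least. LACS2 had 73.3 RPKM in the C24 hybrid, 83.6 in the Ler hybrid and 85.2 in the Col hybrid, a coefficient of variation of 7.99% over the 3 crosses. GPAT6, which serves flower cutin, was nearly as even, with 47.9, 54.3 and 57.0 RPKM in the same order.

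Among the oxidising enzymes the order was the same for each gene, with Ler lowest, C24 between and Col highest. CYP86A8 had 34.1 RPKM in the C24 hybrid, 29.7 in the Ler hybrid and 41.9 in the Col hybrid. For CYP86A4 the totals were 37.0, 24.2 and 55.6 RPKM, and the Col value was 2.30 times the Ler value. Its summed total with the copy CYP86A2 was 213.0, 158.8 and 196.9 RPKM, highest in the C24 hybrid. CYP77A6 had 64.5, 53.0 and 88.6 RPKM, and with its copy CYP77A4 the sum was 73.2, 61.4 and 108.9 RPKM. HTH had 93.3, 74.0 and 131.8 RPKM by its more abundant transcript and 52.5, 43.6 and 78.0 RPKM by the other one, and both transcripts kept this order.

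The acyltransferases did not share one order. GPAT4 had 110.95 RPKM in the C24 hybrid, 91.4 in the Ler hybrid and 137.3 in the Col hybrid, with Ler lowest as for the P450 genes. Its copy GPAT8 had 11.8, 26.6 and 38.9 RPKM, with the C24 hybrid lowest, and it had the largest spread of the 10 genes, with a coefficient of variation of 52.7%. GPAT4 was thus 9.39 times as abundant as GPAT8 in the C24 hybrid but 3.44 times in the Ler hybrid and 3.53 times in the Col hybrid. The summed total of both copies was 122.8, 118.0 and 176.2 RPKM. DCR had 163.5 and 169.4 RPKM in the C24 and Ler hybrids and 235.9 RPKM in the Col hybrid.

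BDG ran against the others. Its total was 42.9 RPKM in the C24 hybrid, 25.7 in the Ler hybrid and 31.8 in the Col hybrid, so the C24 value was 1.67 times the Ler value.

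By the rule of size used for single libraries, at least 2-fold from both other crosses after centring, GPAT8 in the C24 hybrid was the 1 member called, as lower, where 1.09% of all genes were called. It lay 1.00 log2 units below the Ler hybrid, right at the rule, and 1.62 below the Col hybrid, and with a pseudocount of 1 RPKM the gap to Ler was 0.96 and the call was lost. No member was called as higher in the C24 hybrid (2.1% of all genes), higher or lower in the Ler hybrid (1.13% and 1.39%), or higher or lower in the Col hybrid (0.606% and 0.926%). The pattern toward the Col hybrid therefore consisted of differences below 2-fold against at least one other cross.

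Other cell types were checked with marker lists. The 7 epidermis markers were all listed in every cross, and their summed total was 1148, 800.9 and 1075 RPKM for the hybrids of C24, Ler and Col. The summed total was lowest in the Ler hybrid both for them and for the cutin genes. As deposited, 4 of the 7 markers were lowest there, 2 in the C24 hybrid and 1 in the Col hybrid. After centring, 5 were lowest in the Ler hybrid, against 33.9% of all genes, and 1 in each of the other hybrids. ATML1 was called at 2-fold as lower in the Ler hybrid, with 39.2, 20.1 and 52.7 RPKM for C24, Ler and Col. PDF1 was called as higher in the Col hybrid, with 25.1, 40.6 and 78.1 RPKM. After centring, 4 of the 7 markers were highest in the Col hybrid, against 32.6% of all genes, and 3 in the C24 hybrid. These 3 were CER1, CER5 and CER6, with 450.2, 127.7 and 230.9 RPKM in the C24 hybrid. In the Col hybrid they had 346.3, 92.4 and 184.0 RPKM. In whole siliques a smaller part of epidermal cells and less RNA per cell cannot be told apart. The 10 secondary wall markers summed to 1156 RPKM in the C24 hybrid, 198.8 in the Ler hybrid and 226.0 in the Col hybrid, and their part in the C24 values of GPAT8 and BDG was not tested. Of 6 seed coat markers 3 were listed, of 5 endosperm markers 1 (SUC5, 19.2 to 32.6 RPKM) and of 6 embryo markers 1 (WOX9, 6.28 to 10.8 RPKM), so these seed tissues were barely marked. The 6 listed pollen markers of 7 summed to 35.6, 60.6 and 62.5 RPKM. Their median A. arenosa share of allele RPKM was 75.5%, 73.8% and 75.7%, against 5.45%, 3.87% and 4.92% for all genes. In the C24 hybrid it ran from 3.57% for ANX1 to 91.5% for AGP23. Which species gave the pollen was not tested.

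The study's main question concerned the alleles of the 2 species. RNA of the cutin genes came mainly from the A. thaliana allele, and more so than for the median gene in most cases. Whole siliques mix tissues, so a low A. arenosa share can reflect fewer cells carrying that allele or less transcription from it. The part of each was not tested. Over the 10 genes A. arenosa gave 5.96% of summed allele RPKM in the C24 hybrid, 2.97% in the Ler hybrid and 5.80% in the Col hybrid, against 6.23%, 4.60% and 6.58% for all listed transcripts. The median share of the 10 genes was 3.80%, 1.97% and 2.05%, against 5.45%, 3.87% and 4.92% for all genes. In the log2 ratio of A. arenosa over A. thaliana RPKM, 8 members lay below the median gene in the C24 hybrid, 8 in the Ler hybrid and 7 in the Col hybrid. This median was taken over genes with allele values in all 3 hybrids. Against the median share of all genes in its own table, CYP86A4 in the C24 hybrid and GPAT8 in the Ler hybrid lay just on the upper side, at 6.03% and 4.06%.

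**Figure D2:**
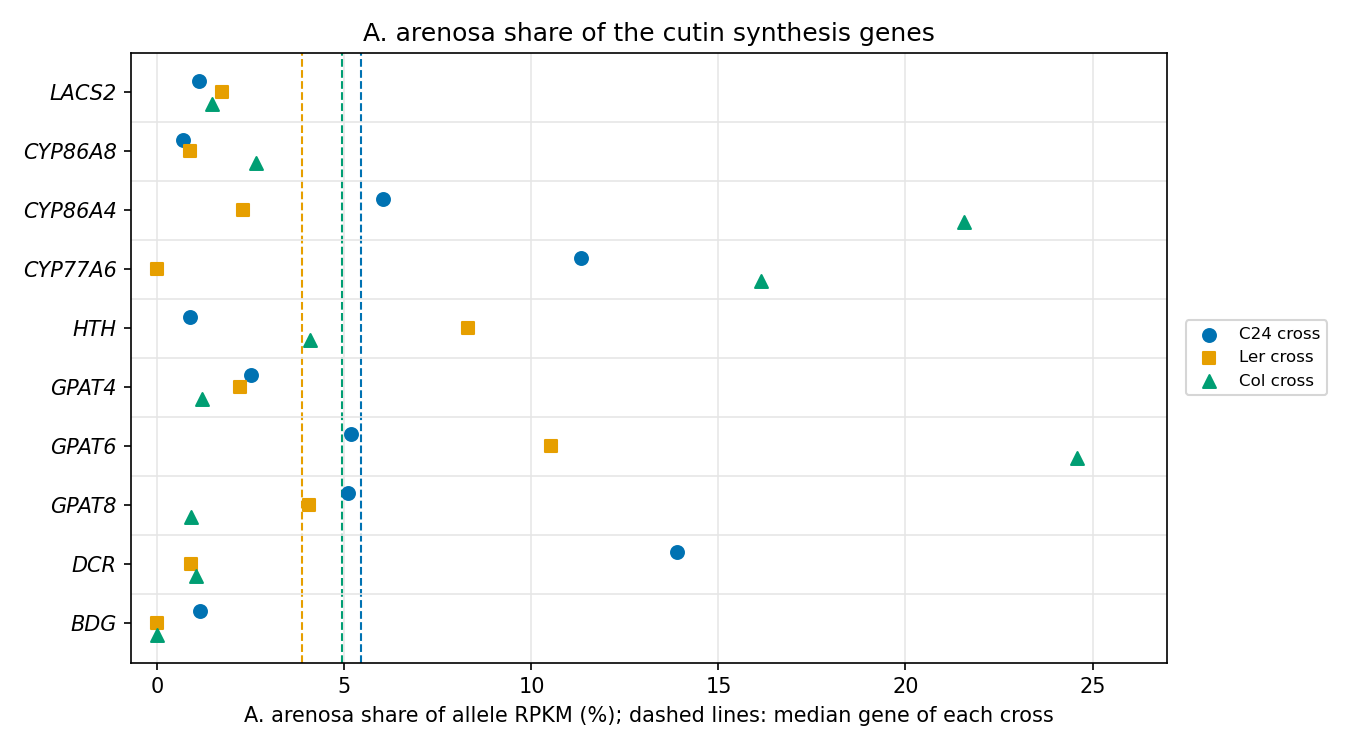
A. arenosa share of allele RPKM, in percent, of each cutin gene in the 3 crosses, 1 library per point, with dashed lines at the median gene of each cross. CYP86A4, CYP77A6 and GPAT6 reach 16.1% to 24.6% in the Col hybrid, DCR reaches 13.9% in the C24 hybrid, and LACS2, CYP86A8 and GPAT4 stay below 3% in all 3.

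LACS2 had little A. arenosa RNA in every cross, with 0.812 RPKM in the C24 hybrid, 1.44 in the Ler hybrid and 1.25 in the Col hybrid. Its share was 1.11%, 1.72% and 1.47%. These shares had the smallest spread of the members whose A. arenosa allele was above 0 in every cross (SD of 0.308 percentage points, n = 3 crosses).

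The P450 genes split. CYP86A8 kept a low share, 0.691% in the C24 hybrid, 0.872% in the Ler hybrid and 2.63% in the Col hybrid. CYP86A4 had 6.03%, 2.28% and 21.6%, where the A. arenosa allele rose from 0.551 RPKM in the Ler hybrid and 2.23 in the C24 hybrid to 12.0 RPKM in the Col hybrid, while the A. thaliana allele was 23.6, 34.8 and 43.6 RPKM. CYP77A6 had 11.3% in the C24 hybrid and 16.1% in the Col hybrid, but its A. arenosa allele was at 0.000477 RPKM in the Ler hybrid against 7.31 and 14.3 RPKM in the others. Its A. thaliana allele was 53.0 RPKM in the Ler hybrid, close to 57.2 RPKM in the C24 hybrid. An A. arenosa value below 0.01 RPKM was found for 2 members in the Ler hybrid (11.5% of genes), 1 in the Col hybrid (10.8%) and 0 in the C24 hybrid (9.14%), and such a value can be a failed allele estimate.

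For HTH, the C24 hybrid was the cross that stood furthest from the others. The A. arenosa allele of HTH had 0.811 RPKM in the C24 hybrid, 6.14 in the Ler hybrid and 5.37 in the Col hybrid. The shares were 0.869%, 8.30% and 4.07%. By its other transcript the shares were 0.810%, 7.87% and 3.83%.

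The glycerol acyltransferases also split. GPAT6 had shares of 5.18% in the C24 hybrid, 10.5% in the Ler hybrid and 24.6% in the Col hybrid. Its A. arenosa allele was 2.48, 5.71 and 14.0 RPKM, while the A. thaliana allele stayed between 43.0 and 48.5 RPKM. GPAT4 had 2.49%, 2.22% and 1.20%, with an A. arenosa allele of 2.76, 2.03 and 1.65 RPKM. GPAT8 had 5.10%, 4.06% and 0.894%. In the Col hybrid the neighbours CYP86A4 and GPAT4 thus stood at 21.6% and 1.20%.

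DCR had the highest A. arenosa RPKM of any member in any cross, 22.7 RPKM in the C24 hybrid, a share of 13.9%. In the Ler and Col hybrids the allele was at 1.54 and 2.44 RPKM, shares of 0.910% and 1.03%. The A. thaliana allele was 140.8, 167.9 and 233.5 RPKM for the hybrids of C24, Ler and Col. BDG had 0.489 RPKM from A. arenosa in the C24 hybrid, a share of 1.14%, and was listed at 0 for this allele in the Ler and Col hybrids.

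These contrasts between crosses were counted by a rule of size, at least 2 log2 units in allelic ratio from both other crosses. DCR in the C24 hybrid (2.45% of all genes) and CYP86A4 in the Col hybrid (3.38%) were called as higher in A. arenosa, by 3.56 and 2.23 log2 units from the nearer cross. As lower were called HTH in the C24 hybrid (2.48%), CYP77A6 in the Ler hybrid (2.85%) and GPAT8 in the Col hybrid (4.04%), with HTH 2.32 and CYP77A6 5.60 log2 units under the nearer hybrid and GPAT8 at a difference of -2.24. No member was called as higher in the Ler hybrid (1.31%). With a pseudocount of 1 RPKM the calls of CYP86A4, HTH and GPAT8 were lost and those of DCR and CYP77A6 held. Summed with its copy CYP86A2, CYP86A4 had A. arenosa shares of 13.7%, 14.4% and 8.25% for the hybrids of C24, Ler and Col, lowest in Col. The sums of GPAT8 with GPAT4 (1.13% in the Col hybrid) and of CYP77A6 with CYP77A4 (0.281% in the Ler hybrid) stayed lowest in these hybrids. Whether copies shared reads was not tested.

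Whether a gene's allelic ratio lay away from the median gene beyond the spread between crosses was tested with limma over the 3 crosses, with Benjamini-Hochberg adjustment over 14660 genes. BDG was the 1 member called, on the A. thaliana side, where 3.36% of all genes were called below and 7.97% above. Its mean log2 ratio was -3.39 ± 0.60 (SE, n = 3 crosses, adjusted p = 0.0407 by limma), below the median gene in 3 of 3 crosses. Because its A. arenosa value was 0 in 2 of the 3 crosses, the pseudocount of 0.1 RPKM sets this value and it is no bound. With any 1 cross left out, limma called 0 genes and the adjusted p of BDG was 0.0877 to 0.182.

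**Figure D3:**
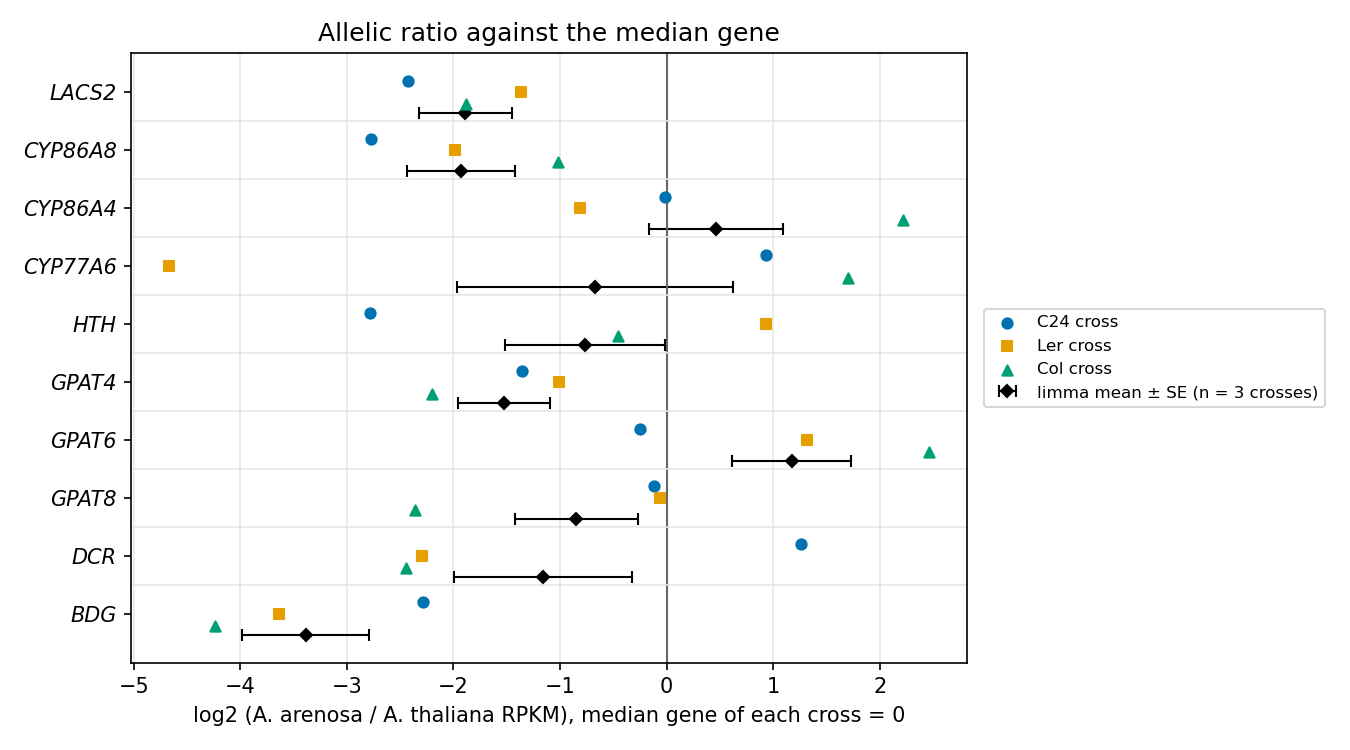
Log2 ratio of A. arenosa over A. thaliana RPKM of each cutin gene after setting the median gene of each cross to 0; coloured points are single libraries and black diamonds the limma mean with its SE over 3 crosses. LACS2, CYP86A8, GPAT4, GPAT8 and BDG lie below 0 in all 3 crosses, and CYP86A4, CYP77A6, HTH, GPAT6 and DCR have crosses on both sides.

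LACS2, CYP86A8 and GPAT4 also lay below the median gene in 3 of 3 crosses and did not pass the adjusted threshold. Their mean log2 ratios were -1.89 ± 0.44, -1.92 ± 0.51 and -1.52 ± 0.43 (SE, n = 3 crosses), with adjusted p of 0.0542, 0.0672 and 0.0777 by limma. With BDG these were the 4 members with an unadjusted p below 0.05 by limma and a ratio below the median gene, against 15.6% of all genes, and 0 members had such a p with a ratio above it, against 19% of all genes. With GPAT8, which lay -0.06 log2 units from the median gene in the Ler hybrid, 5 members were below it in every cross, against 28.1% of all genes, and none was above it in every cross, against 28.3%. GPAT6 had a mean of 1.18 ± 0.56, with an adjusted p of 0.203 by limma, which was 1.89 without the C24 hybrid, 1.11 without the Ler hybrid, 0.53 without the Col hybrid and 0.17 with a pseudocount of 1 RPKM. CYP77A6 had the widest SE, -0.68 ± 1.29, as its crosses lay on both sides of the median gene.

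Allo733 was compared with each hybrid in deposited tables of selected genes, whose selection is not explained. The smallest difference from Allo733 listed was 8.87 RPKM beside the C24 hybrid, 10.2 beside the Ler hybrid and 10.8 beside the Col hybrid. Genes with smaller differences are thus missing, and the 2-fold shares below cover the listed genes only. Of the 10 members, 3 were listed there, and 7 were listed in no table. BDG in the C24 hybrid, at 42.9 RPKM, was 2.42 times Allo733 at 17.7 RPKM, and there 32.2% of the table's genes were at least 2-fold above Allo733 and 30.9% below. CYP86A4 in the Ler hybrid, at 24.2 RPKM, was below Allo733 at 53.4 RPKM, which was 2.21 times as high. Of the genes beside the Ler hybrid, 29.9% were at least 2-fold above Allo733 and 27.8% below. After centring on the median gene of the table, the CYP86A4 difference was -0.78 log2 units and no longer reached 2-fold. DCR was listed in 2 tables and was below 2-fold in both, with 163.5 RPKM in the C24 hybrid and 169.4 RPKM in the Ler hybrid beside 225.2 RPKM in Allo733. Its log2 differences from Allo733 were -0.46 and -0.41, and after centring on the median gene of each table they were 0.11 and -0.05, so the direction beside the C24 hybrid turned. Among the genes beside the Col hybrid, where 32.9% of genes were 2-fold above and 28.4% below, 0 members were listed. Of the wider cutin list, CYP86A2 had 61.6 RPKM in Allo733 and was 2.86, 2.19 and 2.30 times as high as that in the hybrids of C24, Ler and Col. CUS1 and CUS2 had 130.3 and 324.3 RPKM in Allo733 and were called as lower in the C24 hybrid, as was SHN3, with 25.1 RPKM beside 50.3 RPKM in Allo733. LACS1, at 46.4 RPKM in Allo733, was 2.59 times as high in the C24 hybrid and 4.16 times in the Col hybrid. LTPG1, at 178.1 RPKM in Allo733, was 2.44 and 2.07 times as high in these hybrids. All values of Allo733 that occurred in more than 1 table were identical (878 transcripts).

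The rest of the cutin pathway was read from a list of 17 genes, of which 15 were listed in all 3 crosses and the regulators SHN1 and SHN2 in none. The total was highest in the Col hybrid for 11 of the 15 after centring, against 32.6% of all genes, in the C24 hybrid for 4 and in the Ler hybrid for 0. Their median log2 difference from the mean of the other crosses was 0.63 in the Col hybrid, 0.01 in the C24 hybrid and -0.34 in the Ler hybrid. The medians of the 10 cutin synthesis genes were 0.46, 0.04 and -0.50 and those of all genes 0.03, -0.02 and 0.01, in the same order of crosses. Each of these differences uses all 3 libraries, so the values for the crosses depend on each other.

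Called at 2-fold from both other crosses were 3 of the 15, 2 as lower in the C24 hybrid (1.09% of all genes) and 1 as higher in the Col hybrid (0.606%). CUS2, a gene for a cutin synthase-like GDSL lipase, had 102.2 RPKM in the C24 hybrid against 242.3 in the Ler hybrid and 276.4 in the Col hybrid. CUS1, a close relative, had 35.3 RPKM against 93.4 and 144.4 RPKM. CYP77A4, the copy of CYP77A6, was the call in the other direction, with 20.3 RPKM in the Col hybrid against 8.65 and 8.38 RPKM in the C24 and Ler hybrids. In the C24 hybrid CUS1, CUS2 and GPAT8 were thus each at least 2-fold below the Ler and Col hybrids after centring, while CYP86A2, the copy of CYP86A4, had 176.1 RPKM there against 134.6 and 141.3 RPKM.

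**Figure D4:**
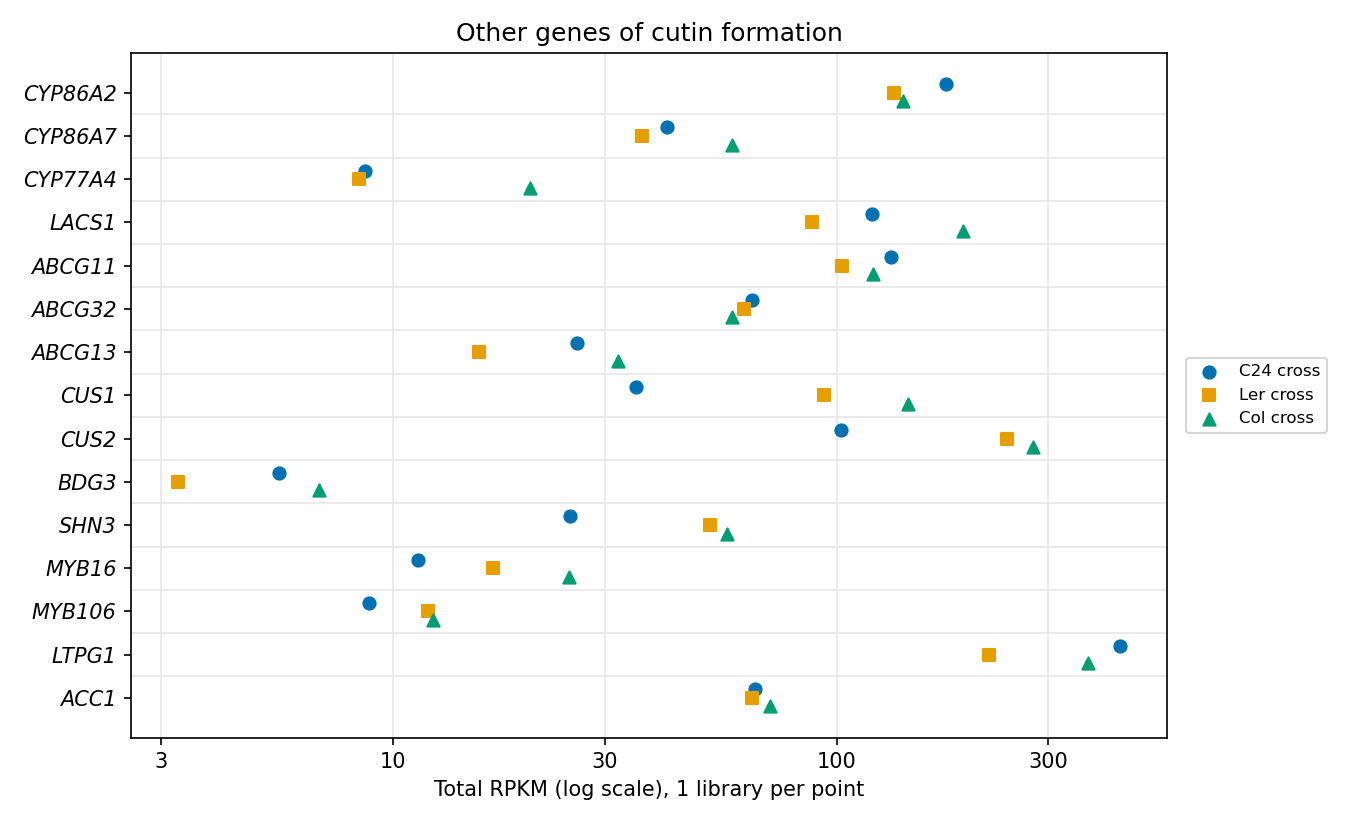
Total RPKM (log axis) in the 3 crosses of the 15 listed genes of a wider cutin list, 1 library per point. CUS1, CUS2, SHN3, MYB16 and MYB106 are lowest in the C24 hybrid, and LTPG1, CYP86A2, ABCG11 and ABCG32 are highest there.

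In allelic ratio limma called 1 of the 15 listed genes on the A. thaliana side, against 3.36% of all genes. It was SHN3, which encodes a transcription factor that activates cutin genes. SHN3 had A. arenosa shares of 0.510%, 0.337% and 0.372% for the hybrids of C24, Ler and Col, and its mean log2 ratio was -3.17 ± 0.48 (SE, n = 3 crosses, adjusted p = 0.0383 by limma). Its A. arenosa allele was at 0.128, 0.175 and 0.210 RPKM, close to the pseudocount of 0.1 RPKM, which thus weighs on this ratio. As limma called 0 genes with any 1 cross left out, this call was lost there too. ABCG13, an exporter needed for flower cuticles, had shares of 5.40%, 14.3% and 58.9%, the latter with 18.9 RPKM from A. arenosa, and was called by the size rule as higher in the Col hybrid. CYP86A2 was called there as lower, with 3.02% against 15.3% and 16.5% in the C24 and Ler hybrids, and its copy CYP86A4 was highest in that cross. LTPG1, a lipid transfer protein gene, was called as lower in the Ler hybrid, where its A. arenosa value was listed at 0.

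Genes of suberin, a related polyester made with glycerol acyltransferases and P450 enzymes of the same families, were seldom listed. Of 16 suberin and other GPAT genes, 8 were listed in any cross and 6 in all. GPAT5, GPAT7, CYP86A1 and CYP86B1, which serve suberin, were listed in none. GPAT1 had 38.8, 32.1 and 38.8 RPKM for the hybrids of C24, Ler and Col. In total FAR1 was called as higher and KCS2 as lower in the Ler hybrid, and limma called KCS2 above the median gene in allelic ratio (1.26 ± 0.27, SE, n = 3 crosses, adjusted p = 0.0487). In allelic ratio FAR1 was called by the size rule as lower in the C24 hybrid.

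Signals that control the cuticle of the embryo were listed for 5 of 8 genes. TWS1, whose peptide reports gaps in the embryo cuticle, had 26.3, 15.5 and 21.7 RPKM for the hybrids of C24, Ler and Col, and its A. arenosa allele was at or near 0 in every cross. Limma called it below the median gene (-3.59 ± 0.54, SE, n = 3 crosses, adjusted p = 0.0383), a value that the pseudocount sets. GSO2, a receptor kinase gene of this pathway, had A. arenosa shares of 5.35%, 22.2% and 87.0%, and it was called by the size rule as lower in the C24 hybrid and higher in the Col hybrid. ZOU, ALE1 and GSO1 were listed in no cross.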

How the data were processed

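Poly(A) RNA of 4 libraries, 1 per group, was sequenced with an Illumina kit, per the labels' protocols. The authors deposited RPKM per transcript, per the file headers, in total and for each allele (columns T and A, read as A. thaliana and A. arenosa), and RPKM of selected transcripts beside Allo733. The submitters' processing notes name TAIR 9; mapping, allele assignment and counting: not given in the sources used here. Low values gave no whole reads for nearly all genes, so depth is unknown, and no counting interval is given. No listed total was below 2.00 RPKM. Any preference of mapping for A. thaliana would lower every A. arenosa share.

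Dropped were 4 repeated header lines of the Col table, and 41 of its transcripts with both alleles at 0 from allele comparisons. Each gene was read from 1 transcript, chosen by the number of hybrids listing it and, among equals, by mean total. A pseudocount of 0.1 RPKM was added before log2, so fold changes of low genes come out too small. Centring was on the median gene. Allelic ratios were fitted with limma 3.58.1 in R 4.3.3 (intercept, trend, threshold 0.05) over genes with allele values in all crosses; its spread holds ecotype and library together. The fit was tested on simulated data. Copies were found with BLAST 2.17.0 on RefSeq transcripts of a later build. Python 3.11.15 was used.

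The members and lists were chosen with earlier results of these data known. All 10 members are named; of other lists, genes called by a rule, listed at 0 or among the first 4 in list order could be named. Not every called gene of the marker lists is named, and some other genes are named for context, chosen after their values were seen.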

Additional observations from a re-analysis of the deposited data

Results flagged for a closer look

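The allelic ratios of 2 members lay on opposite sides of the median gene in different crosses, at least 1 log2 unit above it in one and below it in another, as were 7.21% of all genes. The difference between crosses was not tested, with 1 library each. DCR lay at 1.26 log2 units in the C24 hybrid, -2.30 in the Ler hybrid and -2.45 in the Col hybrid. CYP77A6 lay at 0.93 in the C24 hybrid, -4.67 in the Ler hybrid and 1.71 in the Col hybrid. The Ler value of CYP77A6 comes from an A. arenosa allele near 0, where the pseudocount sets the ratio.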

How the results depend on the processing

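No paired analysis was possible because each group was 1 library. Limma called 1168 genes above and 493 below the median ratio, and 0 and 1 members. A pseudocount of 1 gave 3610 and 3502 genes and 4 members below (BDG, LACS2, GPAT4 and CYP86A8). Without centring, which asks about equal alleles, they were 6 and 14463 genes and 10 members below, and CYP86A4 and GPAT6 turned to -3.65 and -2.94. With the trend on mean total, added after seeing the data, 823 genes and 2 members were below. With 1 cross left out, gene and member counts ranged from 0 to 0, with 3481 to 4449 genes and 3 to 4 members at an unadjusted p below 0.05 by limma. The filter of 5 RPKM and the other transcript left these counts within 1.5 times.

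GPAT8 was not called in total in the C24 hybrid with a pseudocount of 1 or a 4-fold rule (0 members). In allelic ratio between crosses, a pseudocount of 1 left 0 members lower in the C24 hybrid and 0 higher and 0 lower in the Col hybrid. A rule of 1 log2 unit gave 2 higher and 2 lower in the C24 hybrid (7.11% and 8.91% of all genes), 1 higher in the Ler hybrid (5.73%) and 2 higher in the Col hybrid (10.5%). Against Allo733, a 4-fold rule left 0 members above in the C24 hybrid and 0 below in the Ler hybrid, and centring left 0 below in the Ler hybrid. The count of 9 members highest in the Col hybrid was the same without centring, with the filter and with the other transcript.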
